A study of Mus musculus with 7 samples.

Results

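The genes described here are 4 proteases and 3 inhibitors of the extracellular matrix: the matrix metalloproteinase genes Mmp2, Mmp9 and Mmp14, the urokinase gene Plau, and the tissue inhibitor of metalloproteinase genes Timp1, Timp2 and Timp3. They were chosen by gene symbol, and each matched 1 probe, so they make up 7 of the 223 probes, and 7 of the 203 named genes, on the array. The array measured RNA from the soleus, a slow postural muscle of the hindlimb, in 7 mice of strain 129/SV that lack tenascin-C, a matrix glycoprotein. All 7 were cage controls and form 1 group of biological replicates with 1 array each. Age and sex of the animals are not stated in the labels. No wild-type or treated muscle was analysed here, so no value below is an effect of the missing gene. Replicate numbers follow the accessions and carry no order or pairing.

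Metalloproteinases are zinc enzymes made as inactive precursors that cut collagens, laminins and other matrix proteins once activated. Mmp14 encodes an enzyme anchored in the cell membrane, which activates the Mmp2 gelatinase in a complex that also needs Timp2 as a bridge. Mmp9 encodes the second gelatinase, which is abundant in leukocytes, and the Timp1 protein binds it. Plau encodes a serine protease that turns plasminogen into plasmin. Timp3 differs from the other inhibitors in that it stays bound to the matrix. In muscle, these proteins are known for work on the basement membrane and connective tissue around the fibres, much of it by cells between the fibres. In RNA from whole muscle, fewer cells of a type and less RNA per cell cannot be told apart.

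The deposited intensities are shares of each array's summed signal, expressed below in percent. A floor, standing for the dimmest probes, was set at each array's 10th percentile, and a reading above 3 times the floor is called clear. A reading is 1 probe on 1 array. This floor lay at 0.04% for replicates 2 and 7, at 0.05% for replicates 1 and 6, at 0.08% for replicates 4 and 5, and at 0.15% for replicate 3. Values are recorded in steps of 0.01%, so near the floor 1 step is a large part of a reading. Replicate 3 stood apart from the other arrays. Its muscle fibre markers, Myh7, Myh2, Myh1, Mb, Ttn and Des, summed to 2.04%, against 22.5% to 30.6% elsewhere, and its signal was above every other array for 157 of the 223 probes (70.4%). The 28S rRNA signal was lowest in replicate 3 (0.37%). It was also low in replicates 1 and 2 (3.48% and 3.79%) and ran from 24.1% to 49.7% in replicates 4 to 7. The sum behind the shares leaves out the 28S probe and 1 unnamed probe. The 28S percentages are thus ratios to that sum and not parts of it. No member was dimmer on both of replicates 1 and 2 than on each of replicates 4 to 7. Of all probes, 67 were. All 6 muscle fibre markers passed limma's test for a mean above 3 times the floor. Of the 9 proteases, inhibitors and activators listed besides the members, none passed.

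Of the members, Timp2 and Timp3 alone gave clear readings, and their RefSeq promoter windows are shown for that reason. Windows from 250 bases before to 50 bases after the gene start were listed for 4 of the 7 members, namely Mmp14, Timp1, Timp2 and Timp3. The 2 below are in build GRCm38.p6, Timp2 at chr11:118355362-118355661 on the minus strand and Timp3 at chr10:86300162-86300461 on the plus strand. Capitals mark the GC box letters GGGCGG, searched on both strands, so that CCGCCC is the same box on the other strand.
Timp2: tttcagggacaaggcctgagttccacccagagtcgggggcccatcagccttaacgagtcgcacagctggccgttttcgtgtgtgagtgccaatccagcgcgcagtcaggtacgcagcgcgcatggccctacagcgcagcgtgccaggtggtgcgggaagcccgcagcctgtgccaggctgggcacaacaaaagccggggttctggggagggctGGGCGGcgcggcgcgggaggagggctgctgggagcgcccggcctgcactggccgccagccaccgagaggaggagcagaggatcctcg
Timp3: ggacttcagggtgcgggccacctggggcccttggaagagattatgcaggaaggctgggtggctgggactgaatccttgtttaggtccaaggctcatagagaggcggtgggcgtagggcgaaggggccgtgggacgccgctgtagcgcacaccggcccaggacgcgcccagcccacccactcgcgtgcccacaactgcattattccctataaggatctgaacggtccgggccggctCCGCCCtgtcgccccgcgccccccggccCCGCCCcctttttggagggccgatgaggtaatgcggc
The Timp2 window holds 1 such box and the Timp3 window 2. Their GC content is 68.7% and 67.0%, against a median of 52.7% over all 32851 windows, and they hold 25 and 24 CG dinucleotides against a median of 7. The Mmp14 and Timp1 windows, at 56.0% and 55.0% GC with 10 and 8 CG dinucleotides, hold 2 boxes and 1 box, and 35.7% of all windows hold at least 1. Among the members with a window, the box was thus present both with and without clear readings. Mmp2, Mmp9 and Plau had no window to search. In the same annotation Timp3 overlaps the gene Syn3, Timp2 overlaps Cep295nl, Timp1 overlaps Syn1, and Mmp2 overlaps the long noncoding RNA gene Gm45472. Neither the strand nor the sequence of the array's probes is stated in the labels.

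The matrix proteases gave no clear reading on any array, whereas 5 of the 21 inhibitor readings were clear. The proteases had 0 clear readings of 28 and the inhibitors 23.8%, beside 23.7% over all readings of all 223 probes. All 5 clear readings belonged to Timp2, in replicates 2, 6 and 7, and to Timp3, in replicates 2 and 7. Of the 7 members, 2 were thus clear on at least 1 array, while 43% of all probes were. At 2 times the floor, the proteases had 10.7% clear readings and the inhibitors 47.6%. The share over all readings at that line is not given here, so these 2 values have no background beside them. The probes of different genes differ in how much label they bind, so each gene is set only against the floor of its array, and these counts do not compare amounts of RNA between genes. Rounding of the reading and its floor could lift 2 of the readings that were not clear across the line, Timp2 in replicate 1 and Timp3 in replicate 6. Of the 5 clear readings, Timp3 in replicate 2 has 3 times the floor as its lower rounding limit.

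**Figure D1:**
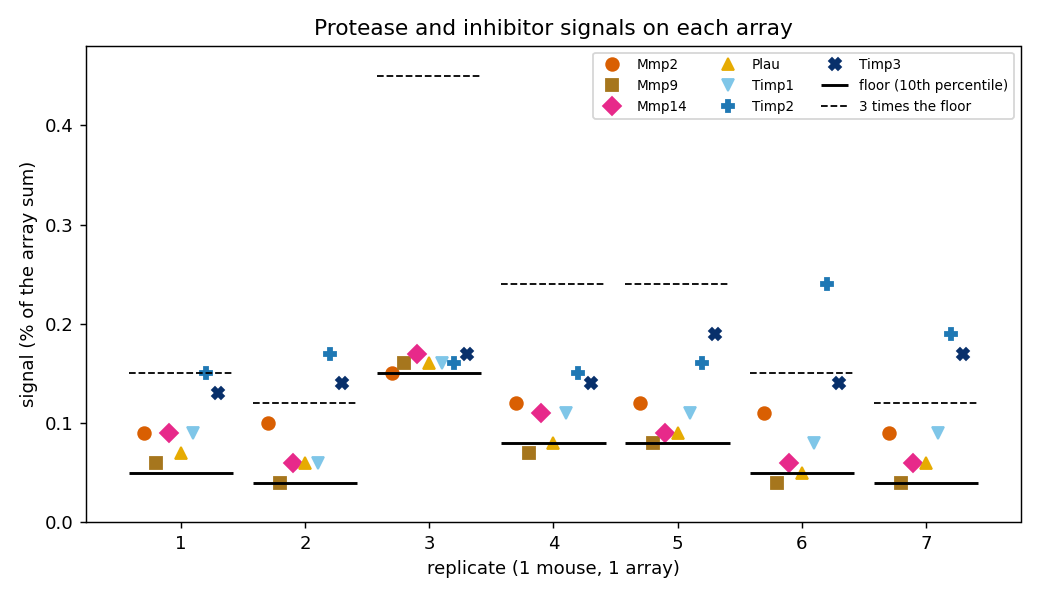
Signal in percent of the array sum (y axis) for the 4 protease and 3 inhibitor probes on each of the 7 arrays (x axis, 1 mouse each), with the floor of the array as a solid line and 3 times the floor as a dashed line. Timp2 lies above the dashed line in replicates 2, 6 and 7 and Timp3 in replicates 2 and 7, and in replicate 3 all 7 members lie between 0.15% and 0.17%.

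Mmp2, which encodes the gelatinase made by connective tissue cells, read 0.09%, 0.10%, 0.15%, 0.12%, 0.12%, 0.11% and 0.09% in replicates 1 to 7. The highest value was that of replicate 3, where it equals the floor, and the other 6 lie within 3 steps of each other. Its mean was 0.111% ± 0.021 (SD, n = 7). As a multiple of the floor it reached 2.5, 2.2 and 2.25 for replicates 2, 6 and 7, and 1.5 to 1.8 for replicates 1, 4 and 5. The geometric mean was 1.75 times the floor, with a 95% interval from limma of 1.37 to 2.23, which lies below 3 times the floor. Mmp2 was the protease with the highest multiple, and it exceeded 2 times the floor on 3 arrays.

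Mmp14, the membrane enzyme that activates the Mmp2 protein, read 0.09%, 0.06%, 0.17%, 0.11%, 0.09%, 0.06% and 0.06% in replicates 1 to 7. It was 1 to 4 steps above the floor on every array, with a mean of 0.091% ± 0.040 (SD, n = 7). The geometric mean was 1.36 times the floor, with a 95% interval of 1.17 to 1.58. Without replicate 3 the geometric mean was 1.40 times the floor, and the interval was 1.2 to 1.63.

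Mmp9 could not be told from the floor. It read 0.06%, 0.04%, 0.16%, 0.07%, 0.08%, 0.04% and 0.04%, within 1 step of the floor on all 7 arrays and at or below it on 5. The geometric mean was 0.984 times the floor, with a 95% interval of 0.896 to 1.08. Its mean was 0.070% ± 0.043 (SD, n = 7). Il1b, the 1 leukocyte marker with a probe, was also clear on no array and had a geometric mean of 1.11 times the floor. Ptprc, Cd68, Adgre1, Itgam and Csf1r were not analysed here.

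Plau, the urokinase gene, read 0.07%, 0.06%, 0.16%, 0.08%, 0.09%, 0.05% and 0.06%, with a mean of 0.081% ± 0.037 (SD, n = 7). It was at the floor in replicates 4 and 6 and 1 or 2 steps above it elsewhere. The geometric mean was 1.21 times the floor, with a 95% interval of 1.06 to 1.38. The probes for its receptor Plaur, for its substrate plasminogen, Plg, and for the tissue-type activator Plat were as close to the floor, at geometric means of 1.23, 1.17 and 1.23 times. None of these 3 was clear on any array.

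Timp1, the inducible inhibitor, gave no clear reading, like the proteases. It read 0.09%, 0.06%, 0.16%, 0.11%, 0.11%, 0.08% and 0.09%, with a mean of 0.100% ± 0.032 (SD, n = 7). It was above the floor on every array, by 1 to 5 steps. Its geometric mean was 1.53 times the floor, with a 95% interval of 1.26 to 1.86.

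Timp2, the inhibitor that also takes part in Mmp2 activation, read 0.15%, 0.17%, 0.16%, 0.15%, 0.16%, 0.24% and 0.19% in replicates 1 to 7. Its mean was 0.174% ± 0.032 (SD, n = 7), and 5 of the 7 values lie within 2 steps of each other. The highest values were those of replicates 6 and 7. Against the floor it read 3 times in replicate 1 and 4.25, 4.8 and 4.75 times in replicates 2, 6 and 7. In replicates 4 and 5, where the floor was 0.08%, similar percentages gave 1.88 and 2 times, and in replicate 3 they gave 1.07 times. The geometric mean was 2.74 times the floor, with a 95% interval of 1.78 to 4.23, and 3.21 times without replicate 3, with an interval of 2.32 to 4.43. Both intervals include 3, so whether the mean lies above that line was not detectable with these arrays.

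Timp3, the matrix-bound inhibitor, read 0.13%, 0.14%, 0.17%, 0.14%, 0.19%, 0.14% and 0.17%, with a mean of 0.154% ± 0.022 (SD, n = 7). Unlike Timp2 it was highest in replicate 5. It was clear in replicates 2 and 7, at 3.5 and 4.25 times the floor, and read 2.6, 2.38 and 2.8 times in replicates 1, 5 and 6. The geometric mean was 2.44 times the floor, with a 95% interval of 1.68 to 3.53, and 2.77 times without replicate 3, with an interval of 2.07 to 3.71. Timp2 and Timp3 stayed at least 6 steps above the floor on all arrays except replicate 3, where they were 1 and 2 steps above it.

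**Figure D2:**
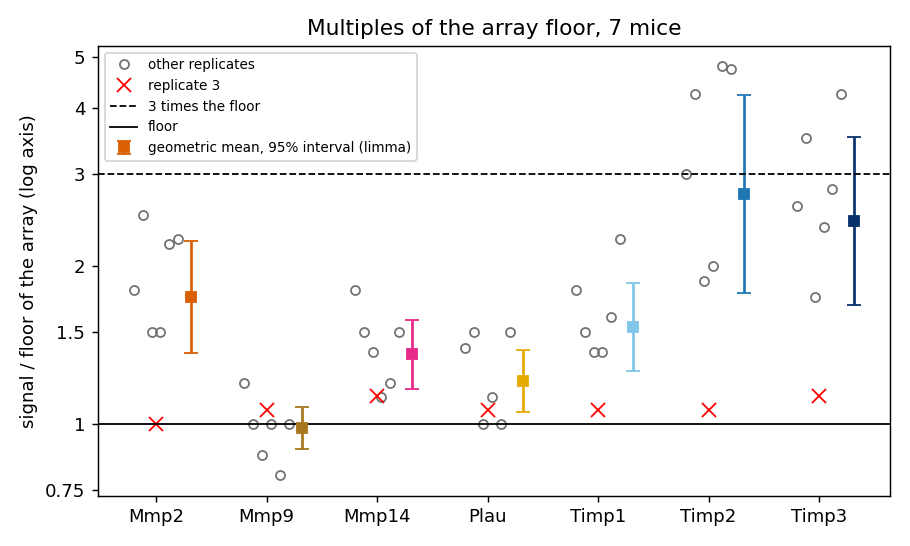
Signal divided by the floor of the array (y axis, log scale) for each member (x axis). Circles are the 6 arrays other than replicate 3, crosses are replicate 3, and squares with bars are geometric means over 7 arrays with limma's 95% interval. The intervals of the proteases and Timp1 lie below the dashed line at 3 times the floor, and those of Timp2 (1.78 to 4.23) and Timp3 (1.68 to 3.53) cross it.

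In limma's one-sided test, no member had a mean above 3 times the floor after Benjamini-Hochberg adjustment over all probes (adjusted p = 1 for each of the 7), beside 29 of 223 probes, or 13%. No member passed at an unadjusted p under 0.05 either, where 36 of all probes did. Without replicate 3 again no member passed, beside 17.9% of all probes. Against the floor itself, a line added after the data were seen, 6 of the 7 members passed, all except Mmp9, beside 81.6% of all probes. The limma adjusted p was 0.00016 for Timp2, 0.00014 for Timp3, 0.00018 for Mmp2, 0.00024 for Timp1, 0.00045 for Mmp14 and 0.0061 for Plau, against 0.67 for Mmp9. Passing that line is common on this array, so the 6 members are not set apart by it. The floor is itself a percentile of the probes and not a measured blank. The probe for Tnc, the gene for the missing tenascin-C, had a geometric mean of 2.03 times the floor and was clear on no array. That is above the geometric means of the 4 proteases and Timp1, and below those of Timp2 and Timp3. What the Tnc probe binds in these mice was not tested. A mean above the floor is thus not taken here as detection of a gene's RNA.

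**Figure D3:**
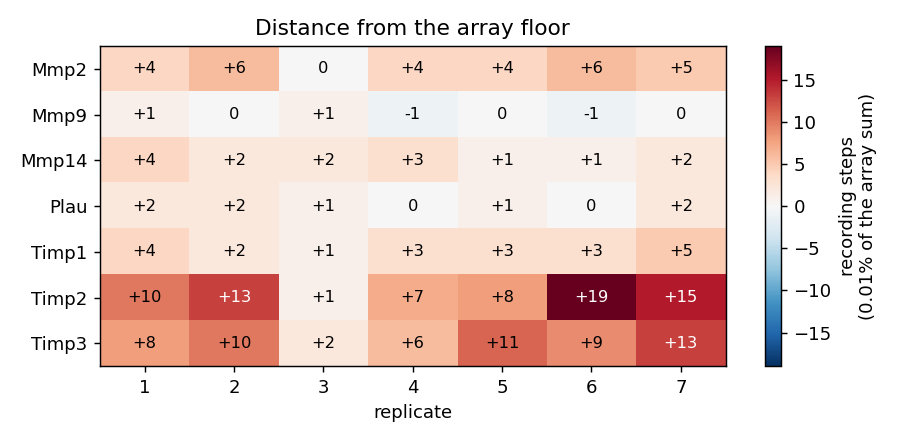
Distance of each member (rows) from the floor of each array (columns, replicates 1 to 7), in recording steps of 0.01% of the array sum, printed in each cell and shown by colour. Mmp9 stays within 1 step of the floor throughout, Timp2 reaches 19 steps in replicate 6, and replicate 3 holds no member more than 2 steps above its floor.

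The spread of each member between the 7 mice was then set against that of other probes at a like level, with limma's variance test. The SD on the log2 scale was 0.26 for Mmp2, 0.73 for Mmp9, 0.56 for Mmp14, 0.55 for Plau, 0.44 for Timp1, 0.24 for Timp2 and 0.20 for Timp3. The trend at the same level ran from 0.48 to 0.77 and was above the SD of each member. No member was called more variable, with limma adjusted p from 0.885 to 0.997, beside 0% of the 223 probes. At an unadjusted p under 0.05 there were 17 probes, none of them a member. Without replicate 3, 2.24% of all probes were called and again no member. Mmp9, with the largest SD of the 7, is the member that stayed within 1 step of the floor.

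On the deposited scale, the profiles of Timp2 and Timp3 over the arrays differed from those of the other members, as a description. In percent, Mmp2, Mmp9, Mmp14, Plau and Timp1 were each higher in replicate 3 than on every other array, which is 5 of 7 members beside 70.4% of all probes, and Timp2 and Timp3 were not. A value highest in replicate 3 was thus common on this array. Over the 7 arrays, Pearson's r of log2 values was tested for each member against every other probe by exact two-sided permutation, 1554 pairs in all. After Benjamini-Hochberg adjustment 547 pairs, or 35.2%, passed. Of all 24753 pairs of probes on the array, 43.5% had an equally small permutation p, a larger share than among the members' pairs. Mmp2 took part in 141 of them, Mmp9 in 113, Timp1 in 111, Plau in 100, Mmp14 in 81, Timp2 in 1 and Timp3 in none. The 1 for Timp2 was with Ctsh, which encodes the lysosomal protease cathepsin H, and was negative (r = -0.82, exact permutation p = 0.017, adjusted p = 0.0496, rho = -0.71, exact permutation p = 0.080). Without replicate 3 no pair passed the exact permutation test after adjustment, and 163 had an unadjusted p under 0.05. With arrays centred on their medians 56 pairs passed. These included pairs of Timp2 and of Timp3 and none of Mmp14, so the counts by member depend on the scaling.

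Among the 21 pairs within the 7 genes, 6 passed, and these were all pairs among Mmp9, Mmp14, Plau and Timp1. That is a smaller share than the 35.2% of the members' 1554 pairs. It is also below the 43.5% of all probe pairs with an equally small permutation p. These genes all lay within 5 steps of the floor on every array, and the part of the floor in these pairs was not tested. The closest was Mmp9 with Plau (r = 0.98, exact permutation p = 0.0012, adjusted p = 0.033 over the 1554 pairs; rho = 0.97, exact permutation p = 0.0012, n = 7). Without replicates 2 and 3, the arrays farthest from the median of Mmp9, r was 0.96. For known partner proteins the values were lower. Mmp9 and Timp1 had r = 0.91 (exact permutation p = 0.0048, adjusted p = 0.033) with rho = 0.92 (exact permutation p = 0.0095), and r = 0.88 without replicates 2 and 3. Mmp14 and Timp2 had r = -0.62 (exact permutation p = 0.14, adjusted p = 0.24) with rho = -0.76 (exact permutation p = 0.064). Mmp2 and Timp2 had r = -0.17 (exact permutation p = 0.69, adjusted p = 0.75) and rho = -0.21 (exact permutation p = 0.64), but r = 0.86 after median-centring (exact permutation p = 0.0089, adjusted p = 0.074), so its sign depends on the scaling. Timp2 and Timp3 likewise had r = -0.05 (exact permutation p = 0.91) and 0.84 after centring (exact permutation p = 0.016, adjusted p = 0.10). Mmp2 and Timp3 had r = 0.41 (exact permutation p = 0.37) and 0.87 after centring (exact permutation p = 0.012, adjusted p = 0.085). No pair within the 7 genes passed without replicate 3 or after centring.

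The difference of 2 probes within an array does not depend on the array's scale, and its spread over mice was listed for 5 pairs. The log2 difference of Mmp9 and Timp1 had an SD of 0.38, but as Mmp9 could not be told from the floor, it does not show whether these partners kept their ratio. For Mmp14 and Timp2 the SD of the difference was 0.74, above those of Mmp14 (0.56) and Timp2 (0.24). That difference ran from -2 in replicate 6 to 0.09 in replicate 3, where every member read 0.15% to 0.17%. For Mmp2 and Timp2 the SD of the difference was 0.39, likewise above those of Mmp2 (0.26) and Timp2 (0.24). For Mmp14 and Timp3 it was 0.55, close to the SD of Mmp14 (0.56) and above that of Timp3 (0.20). For Mmp2 and Mmp14 it was 0.40, below the SD of Mmp14 and above that of Mmp2. With a pseudocount of 0.05% the SD was 0.25 for Mmp2 and Mmp14 and 0.36 for Mmp14 and Timp3. The differences between these SDs were not tested. The SDs of single genes are on the deposited scale and, unlike the differences, depend on it. As multiples of the floor, Mmp2 ran from 1 to 2.5 times and Timp2 from 1.07 to 4.8 times. The order of the SDs was not examined on another scale, so it does not show whether partners varied more against each other than alone. Mmp14 lay within 4 steps of the floor on every array, and the part of the floor in these spreads was not tested.

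For each member the named probe with the most similar profile over the 7 arrays was found by Pearson's r. It was Igfbp1 for Mmp2 (r = 0.99), Igf1r for Mmp9 (0.99), Hk1 for Mmp14 (0.98), Ldha for Plau (0.99) and Pparg for Timp1 (0.97). None of these 5 probes was clear on any array. After median-centring r was -0.34 for Mmp2 with Igfbp1, so its sign turns with the scaling, and it ran from 0.68 to 0.97 for the other 4 of these. For Timp3 it was Cd34 (r = 0.86, exact permutation p = 0.021, adjusted p = 0.054), a marker of endothelial and progenitor cells, and for Timp2 the integrin gene Itgb5 (r = 0.60, exact permutation p = 0.16, adjusted p = 0.27). Cd34 was clear on 1 array and Itgb5 on 2. Without replicates 6 and 7, the arrays farthest from the median of Timp2, r with Itgb5 was -0.28, so its direction rests on those arrays, and it was 0.96 after median-centring. For Timp3 with Cd34, r was 0.77 without replicates 3 and 5. Without replicate 3 (n = 6) the closest were Itgav for Mmp2 (r = 0.99), Igf1r for Mmp9 (0.97), Hk1 for Mmp14 (0.96), Lipe for Plau (0.99), Plaur for Timp1 (0.94), Mef2c for Timp2 (0.86) and Mb for Timp3 (0.94). Mef2c and Mb were clear on 6 arrays each. Without the 2 arrays farthest from the member's median as well, r was 0.10 for Timp2 with Mef2c and -0.44 for Timp3 with Mb, so these 2 relations rest on those arrays. Each of these probes is the best of all named probes, which makes a high r likely, and their values are a description.

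The other listed proteases, activators and inhibitors on this array lay near the floor as well. The list of other proteases, activators and inhibitors had 9 probes (Mmp3, Mmp8, Mmp10, Mmp11, Mmp12, Plat, Plaur, Plg and Adam8). None of the 9 was clear on any array, and their median geometric mean was 1.11 times the floor, beside 1.53 for the 7 members and 1.66 for all 223 probes. Plaur was the highest, at 1.23 times. Of 15 probes for matrix substrates and their receptors, 1 passed limma's test for a mean above 3 times the floor, that of the integrin subunit gene Itgb1 (geometric mean 7.08 times, adjusted p = 0.032), and the median was 2.03 times. None of the 7 probes for known inducers passed. Among these Jun, a subunit of the AP-1 transcription factor, was highest at 2.49 times, and Tgfb1, which encodes a growth factor that induces Timp1, had 1.75 times. Capn3, a calpain of muscle fibres and the 1 probe of the list of intracellular proteolysis, had 1.51 times.

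Markers of cells between the fibres were few. The fibroblast list had 3 probes for 2 genes, none of them clear on any array (Pdgfra at 1.86 times the floor, and Fn1 at 2.03 and 0.984 times). They summed to 0.24% to 0.34% on the 6 arrays and to 0.49% in replicate 3. The 5 endothelial probes summed to 0.45% to 1.27% and to 9.50% in replicate 3, of which Pecam1 gave 8.36%, while Kdr and Tek read 0.16% each there, 1.07 times the floor. Cdh5 and Pecam1 were clear on 4 arrays each. The 2 satellite cell probes, Myf5 and Myod1, summed to 0.09% to 0.20% and to 3.26% in replicate 3, of which Myod1 gave 3.11%, while Myf5 read 0.15%, the floor of that array. The adipocyte marker Fabp4 was clear on 6 arrays. The smooth muscle list had no probe. The part of these cells in the member signals was not tested.

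**Figure D4:**
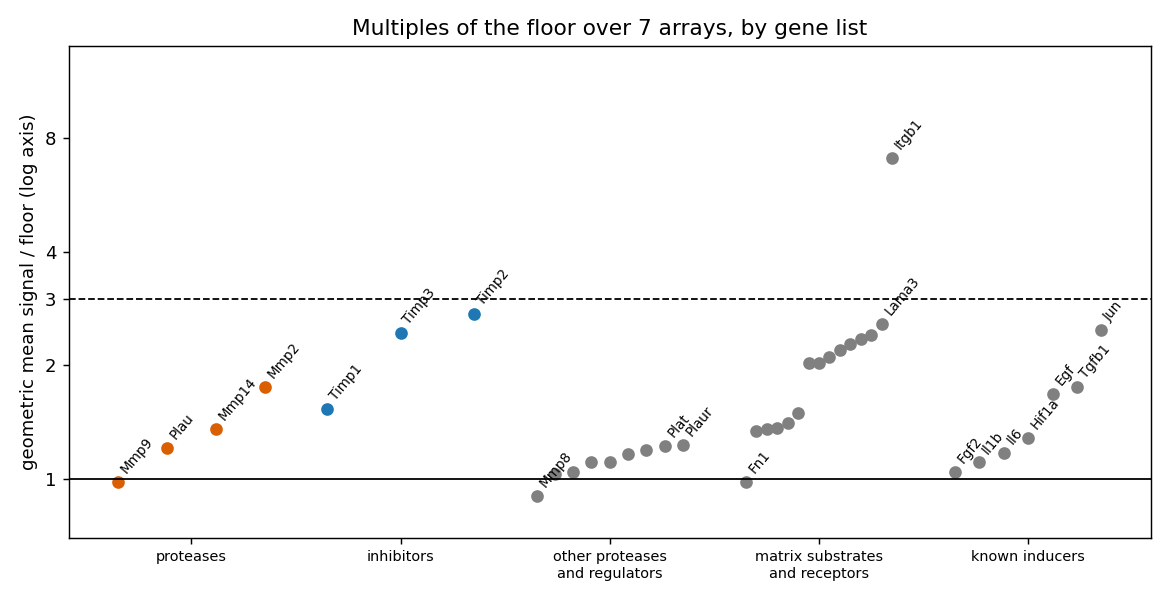
Geometric mean signal over 7 arrays divided by the floor of the array (y axis, log scale) for each probe, by gene list (x axis), with orange for the proteases, blue for the inhibitors and grey for the other lists. The solid line is the floor and the dashed line 3 times the floor; The lists of cell type markers are not drawn. Of the probes drawn, Itgb1 at 7.08 times is the 1 above the dashed line.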

How the data were processed

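RNA from soleus muscle of 7 tenascin-C-deficient mice was measured on 1-channel arrays. Per the labels' protocols, total RNA from cryosections was reverse transcribed with gene-specific primers and a radioactive nucleotide. The deposited values are linear intensities. Without the 28S rRNA probe and 1 unnamed probe they sum to between 99.8% and 100.02% per array, so the authors' intensity values are shares of a sum. The labels do not state how arrays were scanned or how background was treated. The number of arrays limits the precision.

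Probes were named through the supplied platform annotation, and all 7 Entrez identifiers matched RefSeq symbols. Values were used without further scaling. The floor is the 10th percentile of each array. limma 3.58.1 (R 4.3.3, intercept only, trend and robust) tested the mean log2 of signal over floor against 3 times the floor and each variance against the trend, with Benjamini-Hochberg adjustment over 223 probes at 0.05. Correlations used exact permutation over 5040 orders (scipy 1.17.1). The tests were tested on simulated data. The members, the gene lists and the line at 3 times the floor were chosen with earlier results of these data known.

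Named were the 7 members, their most similar probes, and the probes of each list that passed the test against 3 times the floor or, where none did, the highest one. Other genes were named after their values were seen. Alternatives were other floors and lines, quantile normalization, median-centring, a pseudocount of 0.05%, a filter on dim probes (168 of 223 kept, without Mmp9 and Plau), a fit without trend, replicates 1 and 2 averaged, and each replicate left out. P-values measure the spread between these samples only.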

Additional observations from a re-analysis of the deposited data

Results flagged for a closer look

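For each of the 7 genes, the values in percent and as multiples of the floor were examined with Dixon's test for a lone extreme array, which divides the gap to the nearest array by the whole range. Of these 14 values 2 stood out past the critical value of 0.568, which has a nominal rate of about 1 in 20. The values are the same 7 genes on both scales, so they are not independent. The share of all 223 probes past the critical value is not given here. For 70.4% of all probes the signal was highest in replicate 3, so the 2 genes are not set apart by that. Replicate 3 was highest for Mmp9 in percent (0.667), with 0.16% against at most 0.08% on the other arrays, and for Plau in percent (0.636), with 0.16% against at most 0.09%. Neither stood out as a multiple of the floor, where replicate 3 read 1.07 times for both. The floor of replicate 3 was 0.15%.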

How the results depend on the processing

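No paired analysis was possible because the series holds 1 group. No member passed limma's test for a mean above 3 times the floor, and none was called more variable, under any alternative or with any replicate left out (lowest and highest count 0). With the line at the floor itself 6 members passed. Clear readings of inhibitors (23.8%) were 38.1% with the floor at the 5th percentile and 47.6% with a line at 2 times the floor. They were 0% with the pseudocount, which lowers every multiple above 1, and ran from 16.7% to 27.8% with 1 replicate left out. Clear readings of proteases were 10.7% with a line at 2 times the floor, and 0% with any replicate left out. The highest number of members clear on 1 array was 2, and 4 with a line at 2 times the floor. The shares over all probes under these other floors and lines are not given here. The number of pairs that moved together changed most. It was 547 as reported, 0 with quantile normalization, 56 with median-centring and 120 with the filter on dim probes, which leaves fewer pairs to test. With 1 replicate left out it ran from 0 to 538, and it was 0 without each of replicates 2 to 7. With 6 arrays the smallest permutation p is larger, which by itself raises the adjusted values, and 163 to 772 pairs had an unadjusted p under 0.05. With the pseudocount the SD of the partner difference fell from 0.38 to 0.20 for Mmp9 and Timp1, from 0.40 to 0.25 for Mmp2 and Mmp14 and from 0.55 to 0.36 for Mmp14 and Timp3. The other partner SDs stayed within 1.5 times under the alternatives run. With a floor of 0.04% to 0.15% and steps of 0.01%, changes of 1 step cannot be resolved.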

Other observations

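The probe identifiers of the 7 genes, each a number and a letter, fall into 2 stretches, with Mmp14, Mmp9 and Timp1 under number 21 and Plau under 22, and Mmp2 under 5 and Timp2 and Timp3 under 6. The labels do not say what the identifiers stand for. This was looked at after the profiles had been seen. After median-centring, the median r of Mmp9 over 7 arrays was 0.72 with the 30 probes whose number differs by at most 1 and 0.35 with the other 192. The same medians were 0.58 and 0.18 for Mmp14, 0.54 and 0.19 for Plau, and 0.44 and 0.10 for Timp1. For Timp2 they were -0.38 and -0.23, for Timp3 -0.29 and -0.15, and for Mmp2 -0.03 and -0.22. Without replicate 3 the 4 genes under 21 and 22 had 0.83 and 0.32 (Mmp9), 0.73 and 0.27 (Mmp14), 0.65 and 0.38 (Plau), and 0.61 and 0.22 (Timp1). The 4 genes whose 6 pairs passed the permutation test are these 4. Their closest named probes over 7 arrays carry the numbers 20 for Mmp14 (Hk1), 20 for Plau (Ldha), 16 for Mmp9 (Igf1r) and 12 for Timp1 (Pparg). Without replicate 3 the numbers are 20 for Mmp14 (Hk1), 20 for Plau (Lipe), 16 for Mmp9 (Igf1r) and 21 for Timp1 (Plaur), so the closest probe does not always have a near number. Whether a shared position plays a part in these profiles was not tested.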
